A study of Mus musculus with 12 samples.

Results

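The results concern 51 mouse genes whose transcripts accompany DNA replication and mitosis, 25 of S phase and 26 of the G2 and M phases (G2/M). They were taken by gene symbol from a table of 55450 genes, whatever their values. All 51 were found, and all 51 passed the filter on low counts that kept 15361 genes for testing, the lowest member value in any library being 4 counts. RNA was sequenced from 3 CD4+ populations sorted out of the mouse thymus (4 libraries per population). Every population, Tconv included, carries the CD4-Cre and Foxp3-GFP alleles. Cre is driven by the Cd4 promoter, with no floxed gene named in the labels, and green fluorescent protein reports Foxp3, the transcription factor that defines regulatory T cells (Tregs). Eos+ Tregs were sorted as CD4+Foxp3+Ccr6+Cxcr4+ cells and Eos- Tregs as CD4+Foxp3+Ccr6-Cxcr4- cells, so "Eos" (the product of Ikzf4) stands for a surface phenotype here and was not itself sorted on. Conventional T cells (Tconv) were CD4+Foxp3-. The CD4+ gate as written does not mention CD8, and the age, sex and strain of the mice and the number pooled per library are not given in the sources used here. The series title places the question in the role of Eos in Treg homeostasis and in Tregs that recirculate to the thymus.

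A dividing cell copies its DNA in S phase and separates the copies in mitosis. Origins are licensed in G1 when Cdc6 and Cdt1 load the Mcm2-7 helicase, and E2F factors with cyclin E open S phase. Cyclin A2, cyclin B and Cdk1 then drive G2 and M, and the spindle checkpoint holds anaphase until chromosomes are attached. S phase genes are classically E2F targets, whereas many G2/M promoters carry a CHR element (TTTGAA) near CCAAT boxes, through which the MuvB complexes act. In the thymus most proliferation belongs to immature thymocytes, while newly made CD4 T cells and Tregs that return from the periphery divide less.

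Promoters of 5 members are shown: Mcm6, Cks2 and Chaf1b, which passed the test between the Treg groups, and Mki67 and Ccnb2, which stand for the G2/M pattern and did not pass that test. Each run is the 250 bases before the RefSeq transcript start (GRCm38.p6), on the strand of the gene. Capitals mark E2F letters (TTTCGCGC or TTTGGCGC), the CHR letters (TTTGAA) and CCAAT, on either strand.
Mcm6, chr1:128359706-128359955, minus strand: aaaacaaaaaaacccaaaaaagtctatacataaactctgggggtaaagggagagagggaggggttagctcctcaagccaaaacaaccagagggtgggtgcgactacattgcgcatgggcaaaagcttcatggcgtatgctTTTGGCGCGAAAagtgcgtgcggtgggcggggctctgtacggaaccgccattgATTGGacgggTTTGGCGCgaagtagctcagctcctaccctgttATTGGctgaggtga
Chaf1b, chr16:93883651-93883900, plus strand: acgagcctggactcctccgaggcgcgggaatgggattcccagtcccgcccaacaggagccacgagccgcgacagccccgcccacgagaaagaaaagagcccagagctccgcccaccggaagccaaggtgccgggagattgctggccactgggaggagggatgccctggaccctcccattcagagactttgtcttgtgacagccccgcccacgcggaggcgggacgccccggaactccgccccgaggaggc
Mki67, chr7:135716380-135716629, minus strand: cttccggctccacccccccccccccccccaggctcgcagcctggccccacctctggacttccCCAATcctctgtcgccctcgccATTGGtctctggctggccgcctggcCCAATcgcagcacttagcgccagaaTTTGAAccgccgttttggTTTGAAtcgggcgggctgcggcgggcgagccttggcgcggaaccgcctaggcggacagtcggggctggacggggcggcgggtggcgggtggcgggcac
Ccnb2, chr9:70421555-70421804, minus strand: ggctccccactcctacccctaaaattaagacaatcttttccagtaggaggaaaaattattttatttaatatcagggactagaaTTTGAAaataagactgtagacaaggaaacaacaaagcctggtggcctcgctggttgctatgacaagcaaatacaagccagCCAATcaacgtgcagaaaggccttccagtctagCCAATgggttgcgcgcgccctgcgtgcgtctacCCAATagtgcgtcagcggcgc
Cks2, chr13:51644982-51645231, plus strand: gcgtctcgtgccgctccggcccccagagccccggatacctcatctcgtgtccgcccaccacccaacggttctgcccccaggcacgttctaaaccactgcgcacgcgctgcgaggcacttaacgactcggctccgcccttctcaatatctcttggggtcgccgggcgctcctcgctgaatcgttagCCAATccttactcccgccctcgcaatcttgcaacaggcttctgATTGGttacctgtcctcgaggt
The stretch of Mcm6 holds 3 E2F matches, 2 of them overlapping on opposite strands, and 2 CCAAT boxes. Mki67 and Ccnb2 each hold 3 CCAAT boxes, with 2 CHR matches in Mki67 and 1 in Ccnb2. A second CHR match of Ccnb2 begins at base 5 after the start, beyond the stretch shown. Cks2 holds 2 CCAAT boxes and none of the other letters, and Chaf1b holds none of the motifs searched. In the full windows of 300 bases (250 before to 50 after the start), 43 of the 51 members were matched by symbol, 21 of S phase and 22 of G2/M. A CHR match stood in 72.7% of the 22 G2/M windows, in 12.5% of the 24 S phase windows and in 17.9% of all 32851 windows. An E2F match stood in 29.2% of S phase windows (Mcm3, Mcm5, Mcm6, Mcm7, Cdt1, Uhrf1 and Pola1), in 4.55% of G2/M windows (Cdk1) and in 0.813% of all. CCAAT stood in 58.3% of S phase windows, 81.8% of G2/M windows and 37.4% of all. A match is a string of letters, not a shown binding site.

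Libraries held 23.9 to 37.9 M expected counts. Levels are in CPM, counts relative to library totals scaled by TMM, a factor that evens out composition between libraries. All 7 T cell markers were present in every library, with Cd3e at 801 to 1040 CPM. Ikzf4 ranged from 292 to 334 CPM (Eos+), 155 to 181 (Eos-) and 22.7 to 27.4 (Tconv). Ccr6, one of the sort markers, stood at 227 to 263, 10.4 to 19.7 and 1.08 to 4.22 CPM, and Cxcr4 overlapped between the Treg groups (25.2 to 52.9 against 22.7 to 42.3 CPM). Foxp3 was 55 CPM in Eos+ Treg 1 and 53.3 CPM in Eos- Treg 1, against 485 to 862 CPM in the other 6 Treg libraries and 0.687 to 3.42 CPM in Tconv. Other Treg markers did not all follow it. In Eos+ Treg 1 and Eos- Treg 1, Il2ra was 538 and 496 CPM (355 to 642 in the other 6). Ctla4 was 436 and 261 CPM (198 to 489). Ikzf2, at 465 and 262 CPM, was the lowest of its group in each. The 3 libraries numbered 1 also held haemoglobin and other erythroid transcripts summing to 388 to 536 CPM, against 0.0311 to 39.7 CPM in the other 9. Because those 3 libraries stand apart, values without Eos- Treg 1 are given where they change a call, and those without all 3 as counts and for some genes. Leaving out only Eos- Treg 1 keeps Eos+ Treg 1 and Tconv 1, the highest of their groups in mean log2 CPM of G2/M genes (4.83 and 4.86). That omission is therefore not balanced over the replicate numbers. Between the Treg groups it called 13 S phase and 13 G2/M members (18.5% of all genes). Without all 3 libraries the counts were 10 and 3 (14.7% of all genes). The labels do not say that replicates came from separate animals, so p-values cover only library-to-library spread, possibly technical.

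As group means, cell cycle transcripts were lowest in Eos- Tregs, with the wider gap in the G2/M genes and with overlap between the groups. As the mean of log2 CPM over the 26 G2/M genes, Eos- Treg libraries 1 to 4 stood at 4.69, 3.41, 1.13 and 1.95, Eos+ Treg libraries at 4.83, 3.35, 4.05 and 3.99, and Tconv libraries at 4.86, 4.70, 4.16 and 3.89. Over the 25 S phase genes the same means were 5.88, 5.02, 4.51 and 4.68 for the Eos- libraries, 5.99, 5.23, 5.55 and 5.33 for the Eos+ libraries and 5.96, 5.93, 5.53 and 5.59 for Tconv. Eos- Treg 3 and Eos- Treg 4 were thus far below every other library for G2/M genes, while Eos- Treg 1 lay among the highest and overlapped both other groups. In these bulk libraries, fewer dividing cells and less of these RNAs per cell cannot be told apart.

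**Figure D1:**
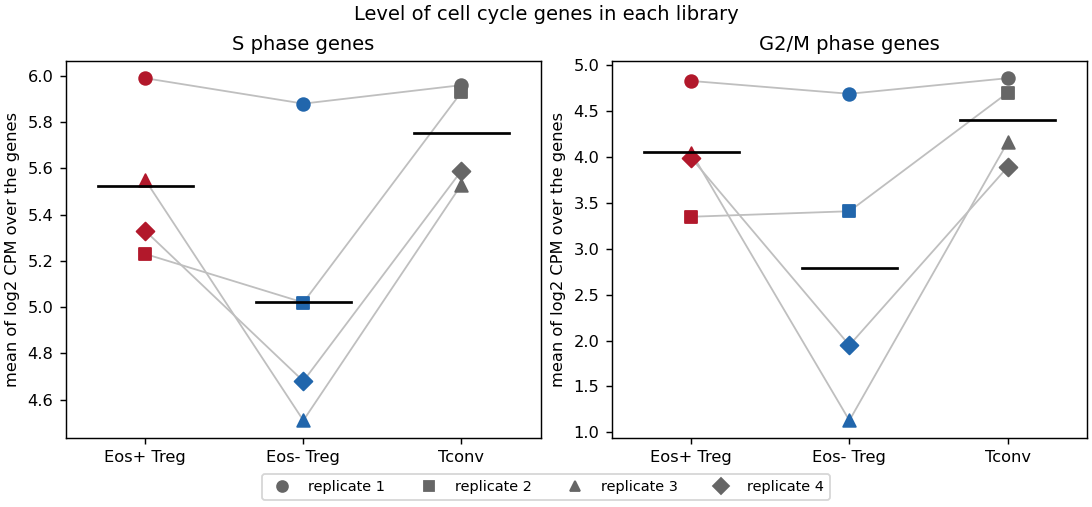
Mean log2 CPM over the 25 S phase genes (left) and the 26 G2/M genes (right) in each of the 12 libraries; grey lines join libraries with the same replicate number and black bars are group means of 4. The libraries numbered 1 lie together at the top in all groups (4.69 to 4.86 for G2/M), and Eos- Treg 3 and 4 lie lowest (1.13 and 1.95).

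The spread between libraries of a group was also widest for G2/M genes in Eos- Tregs. The median SD of log2 CPM over 4 libraries for G2/M genes was 1.81 (Eos-), 0.64 (Eos+) and 0.49 (Tconv), against 0.29, 0.28 and 0.24 over all tested genes. For S phase genes it was 0.51, 0.31 and 0.22. Within Eos+ Tregs, library 1 was highest for 23 of 25 S phase and 25 of 26 G2/M genes, and library 2 lowest for 24 of 26 G2/M genes. Within Eos- Tregs, library 1 was highest for 23 and 24 genes, and library 3 lowest for 16 and 20. Compared at the same replicate number, the median log2 ratio of Eos+ to Eos- Tregs over G2/M genes was 0.11, -0.06, 3.12 and 2.03 in numbers 1 to 4. That of Eos- Tregs to Tconv was -0.18, -1.38, -3.21 and -2.06, and that of Eos+ Tregs to Tconv 0.07, -1.46, -0.09 and 0.20. Between the Treg groups the G2/M ratio was far from 0 in numbers 3 and 4 only. Between Eos- Tregs and Tconv it was widest in those numbers and next in number 2.

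**Figure D2:**
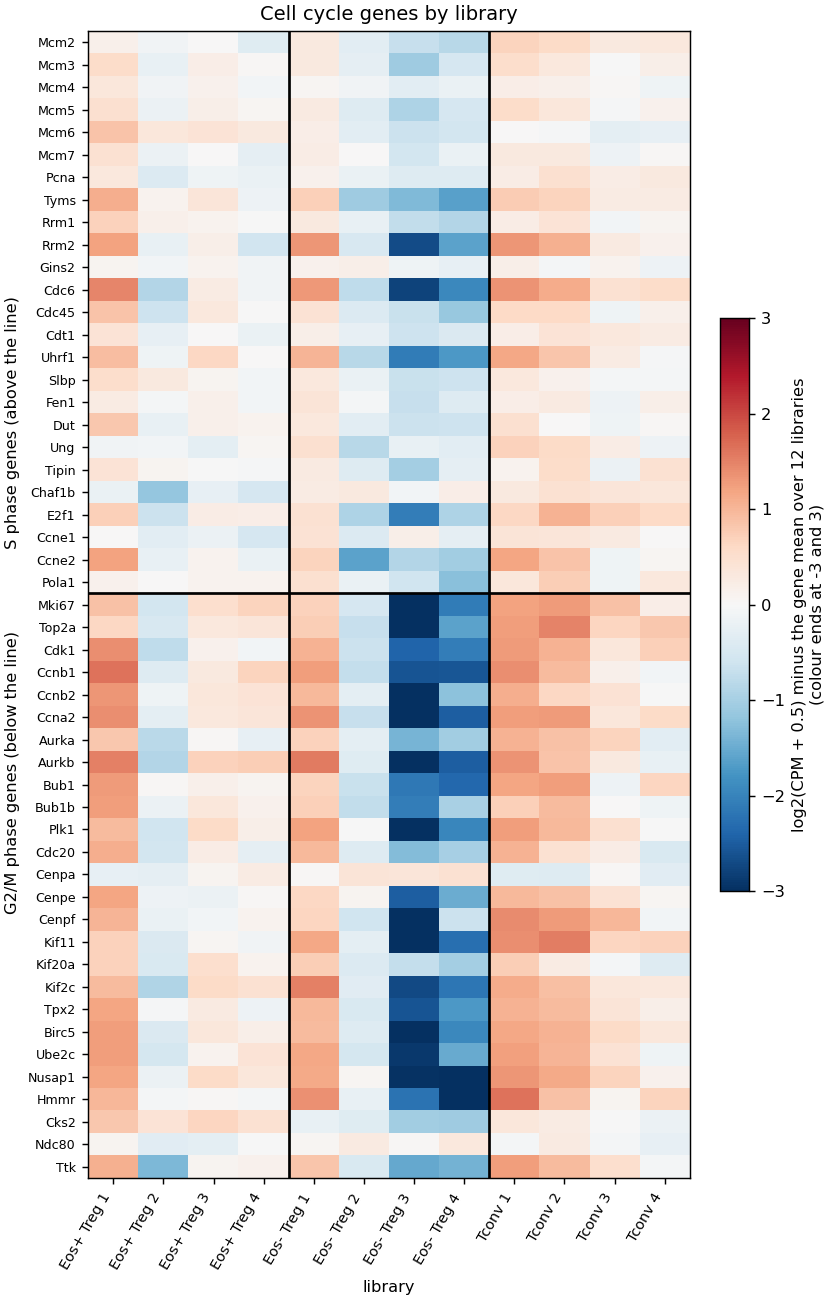
Each row is a gene and each column a library; colour is log2(CPM + 0.5) minus the mean of the gene over 12 libraries, ending at -3 and 3. Most G2/M rows are darkest blue in Eos- Treg 3 and 4, whereas the rows of Cenpa and Ndc80 are pale throughout.

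Between Eos- Tregs and Tconv, all 25 S phase genes and 24 of 26 G2/M genes had a log2 change below 0, with medians of -0.56 and -1.03 against -0.01 over all tested genes. Few passed the edgeR quasi-likelihood test (adjusted p under 0.05), fitted over all 12 libraries with no term for the replicate number; "called" means that fit unless another is named. In S phase 2 genes fell (Mcm2 and Pcna) and 23 were not called. In G2/M 1 fell (Cks2), 1 rose (Cenpa) and 24 were not called. Of all genes tested, 14.6% were called in this comparison, 8.76% higher and 5.89% lower. The 4 of 51 members called are below that background in this fit, which ignores the replicate number. By direction, the 3 that fell are near the background share and the 1 that rose is below it. With the replicate number as a block, 15 S phase and 11 G2/M genes fell and 1 G2/M gene rose, against 21.5% of all genes called, 11.3% higher and 10.2% lower. In that fit 27 of 51 members were called, which is above the background. The 26 that fell are above the share in that direction, and the 1 that rose is below it. Without Eos- Treg 1 the counts that fell were 18 and 16, with 1 rise, against 18.2% of all genes called, 9.73% higher and 8.42% lower. Without all 3 libraries numbered 1 they were 16 and 13, with 1 rise (15.5% of all genes called, 8.41% higher and 7.07% lower). The background was 20.3% with both the block and that omission, and 21.5% in limma-voom. Leaving out any other Eos- or Tconv library took the calls to between 0 and 1 in S phase and between 0 and 2 in G2/M. Over all genes those fits called 1574 to 1869 of 15798 to 15909 tested. Immature thymocyte markers summed to 59.8 to 443 CPM in the Eos- libraries and 118 to 378 in the Tconv libraries, and their part in the result was not tested.

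Between Eos+ and Eos- Tregs, 23 of 25 S phase and 24 of 26 G2/M genes had a log2 change above 0, with medians of 0.42 and 0.78 against 0.0 over all genes. Mcm6 and Cks2 rose in Eos+ Tregs and Chaf1b fell, and the other 48 members were not called. Of all genes tested, 16.3% were called, 9.82% higher and 6.45% lower, so 3 of 51 members is below the background in this fit too. With the block, 9 S phase and 3 G2/M genes rose and 1 of each fell (22.8% of all genes called, 13.1% higher and 9.67% lower). In that fit 14 of 51 members were called. The 12 that rose are above the background share in that direction, and the 2 that fell are below theirs. Without Eos- Treg 1, 12 of each rose and 1 of each fell (18.5% of all genes called, 11.2% higher and 7.3% lower). Without the libraries numbered 1, 9 and 3 rose and Chaf1b fell (14.7% of all genes called, 9.34% higher and 5.4% lower). The background was 19.8% with both the block and that omission, and 20.2% in limma-voom.

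Between Eos+ Tregs and Tconv, the median log2 changes were the nearest to 0 of the 3 comparisons. They were -0.15 in S phase and -0.32 in G2/M, against -0.01 over all genes. Mcm6 rose, Chaf1b fell and the other 23 S phase genes were not called, where 30.3% of all genes were called, 17.3% higher and 13.0% lower. No G2/M gene was called in the edgeR fit of all 12 libraries without the block. At an unadjusted p under 0.05 there was 1, Cks2. DESeq2 called 0, limma-voom called 1 lower, edgeR with the block called 1 higher, and edgeR on these 2 groups only called 2 lower (31.6% of all genes called). Over all 15361 genes DESeq2 called 5214. With the block, Mcm6 rose and Mcm2, Pcna, Chaf1b and Ccne1 fell in S phase (36.3% of all genes called, 19.8% higher and 16.5% lower). Backgrounds were 36.1% in limma-voom, 26.5% without the libraries numbered 1 (15.6% higher and 10.9% lower) and 31.6% with the block as well. These 3 comparisons share groups in pairs, so they are not separate evidence. Groups did not overlap for 3, 5 and 5 of the 51 members in the order Eos+ against Eos- Tregs, Eos+ Tregs against Tconv and Eos- Tregs against Tconv, where 20.0%, 33.1% and 20.1% of all genes did not.

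**Figure D3:**
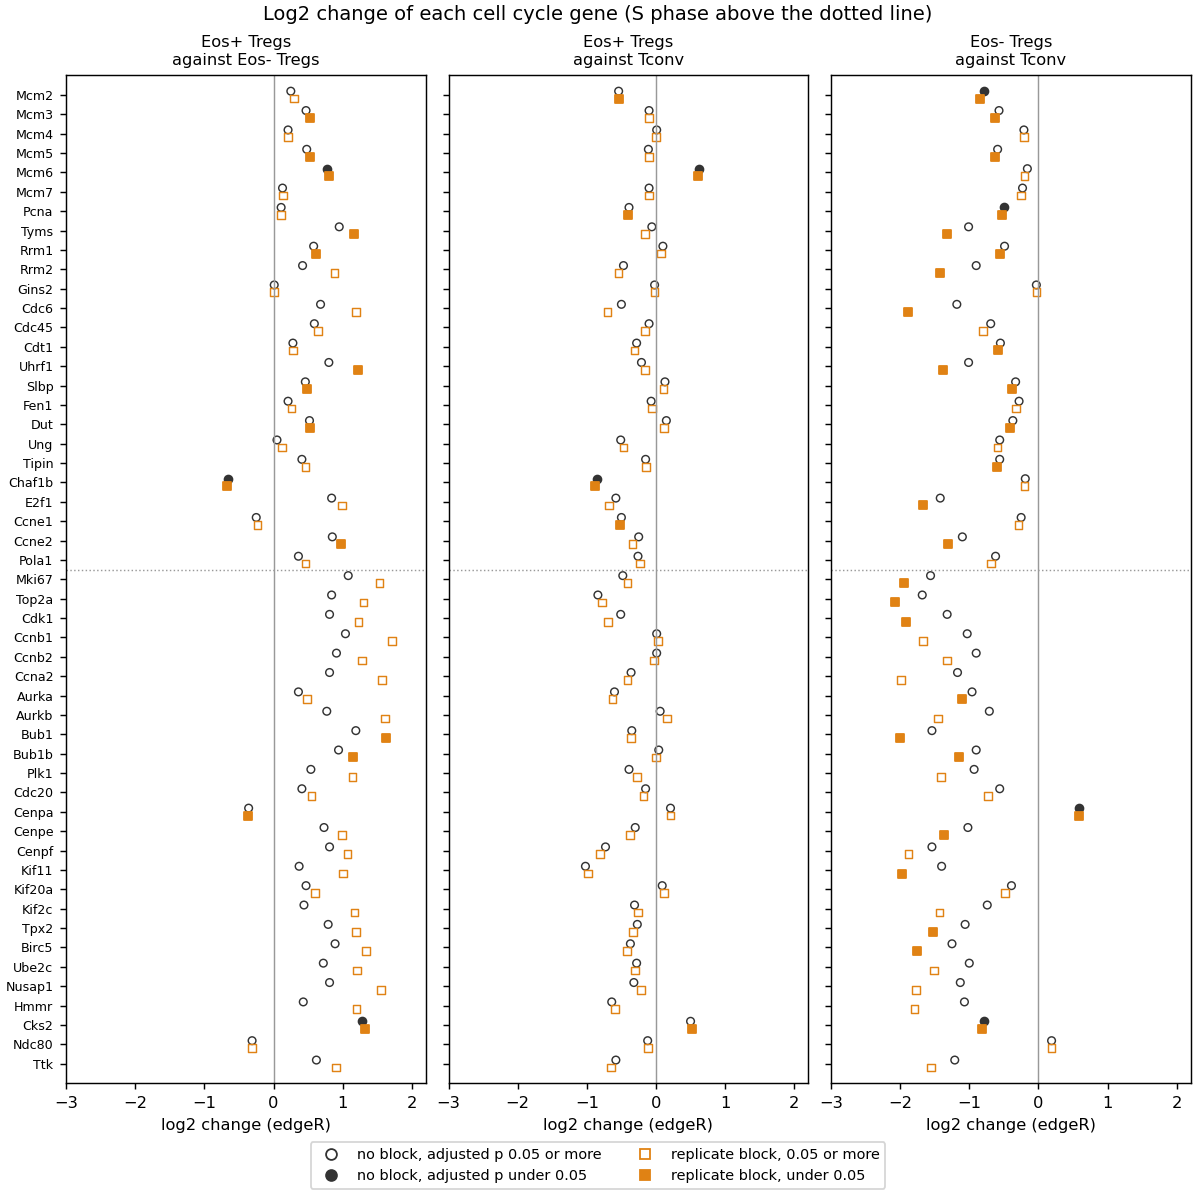
Fitted log2 change of each gene in the 3 comparisons, without the block (circles) and with it (squares); filled symbols have an adjusted p under 0.05. In the panel of Eos- Tregs against Tconv nearly all symbols lie left of 0, and 26 squares but only 3 circles on that side are filled.

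The Mcm2-7 helicase unwinds DNA at the fork, and its 6 subunits work in equal numbers. Mcm6 (ENSMUSG00000026355.11, chromosome 1, 128331590 to 128359664, mm10) was 440, 306, 325 and 297 CPM in Eos+ libraries, 280, 195, 155 and 165 CPM in Eos- libraries and 247, 238, 199 and 205 CPM in Tconv libraries. Every Eos+ library exceeded every library of the other groups, which overlapped each other. Mcm6 rose 1.72-fold over Eos- Tregs (log2 0.78, SE 0.18, adjusted p = 0.00998, edgeR) and 1.54-fold over Tconv (log2 0.62, SE 0.18, adjusted p = 0.0191, edgeR), higher in 4 of 4 replicate numbers each time. The first call held in all 18 other fits (adjusted p 0.000207 to 0.0311). The second was lost without Eos+ Treg 1 (0.0606), Tconv 3 (0.0562) or Tconv 4 (0.0523). Per kilobase of exon, Mcm6 was also the most abundant member, at 54.5 CPM per kb over 12 libraries, with Pcna next at 50.6.

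The other 5 subunits did not follow Mcm6 above Tconv. Mcm2 (chromosome 6) was 159, 134, 145 and 111 CPM in Eos+ libraries, 177, 115, 88.6 and 80.4 in Eos- libraries and 227, 214, 175 and 179 in Tconv libraries. It fell 1.73-fold in Eos- Tregs against Tconv (log2 -0.79, SE 0.21, adjusted p = 0.0248, edgeR), with 1 Eos- library above the lowest Tconv value. That call was lost when Eos- Treg 2, 3 or 4 or Tconv 1 or 2 was left out (adjusted p 0.0542 to 0.0711). In Eos+ Tregs against Tconv all 4 libraries of Mcm2 lay below all 4 of Tconv, with log2 -0.54 and adjusted p = 0.0737 (0.00836 with the block, 0.0228 without the libraries numbered 1). Mcm3, Mcm4, Mcm5 and Mcm7 had log2 changes of -0.11 to 0.01 between Eos+ Tregs and Tconv and of 0.13 to 0.48 between the Treg groups, none called. With the block, Mcm3 and Mcm5 rose in Eos+ against Eos- Tregs (log2 0.53 in each, adjusted p = 0.0463 and 0.0216) and fell in Eos- Tregs against Tconv (log2 -0.63 in each, 0.0233 and 0.00976). Leaving out Eos- Treg 1 also called Mcm2, Mcm3 and Mcm5 between the Treg groups (log2 0.52, 0.74 and 0.74, adjusted p = 0.0325, 0.0283 and 0.0153), and Mcm3 and Mcm5 in Eos- Tregs against Tconv (-0.85 in each, 0.015 and 0.00716). Between the Treg groups, the calls of Mcm2 and Mcm3 were lost without the libraries numbered 1 (adjusted p = 0.0807 and 0.068). That of Mcm5 held (0.61, adjusted p = 0.0285). Mcm7 shares 64 exon bases with Cops6 and 321 with Ap4m1, and the libraries carry no strand.

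Cdc6 and Cdt1 license origins, and Cdc45 and Gins2 belong to the helicase that fires from them. Cdc6 was 31.6, 5.80, 13.2 and 10.3 CPM in Eos+ libraries, 28.0, 6.35, 1.21 and 2.53 in Eos- libraries and 29.2, 24.7, 15.5 and 16.6 in Tconv libraries. Its log2 change in Eos- Tregs against Tconv was -1.18 (adjusted p = 0.363), with the block -1.89 (0.035). Without Eos- Treg 1 it was called there (-2.66, adjusted p = 0.0115) and between the Treg groups (2.15, 0.0295), and without the libraries numbered 1 it was called against Tconv (-2.48, 0.0118) but not between the Treg groups (1.52, 0.0822). Cdt1 was 38.2, 24.0, 28.8 and 25.0 CPM in Eos+ libraries, 32.5, 23.9, 18.4 and 21.1 in Eos- libraries and 32.8, 38.2, 35.5 and 34.2 in Tconv libraries. Every Eos- library of Cdt1 lay below every Tconv library, at log2 -0.55 and an adjusted p of 0.0649 (0.0232 with the block, 0.01 without Eos- Treg 1). It also fell in Eos+ Tregs against Tconv without the libraries numbered 1 (-0.48, adjusted p = 0.0286). Gins2 was nearly level, at 24.6 to 33.4 CPM in all 12 libraries with log2 changes of -0.03 to 0.01, though it shares 2758 exon bases with Gse1. Cdc45 (5.69 to 24.1 CPM) was not called in any comparison, with or without the block, but fell in Eos- Tregs against Tconv without Eos- Treg 1 (-1.09, adjusted p = 0.0407). It was not called there without the libraries numbered 1 (-0.99, adjusted p = 0.0519).

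The enzymes of nucleotide supply include thymidylate synthase (Tyms), which makes dTMP, the ribonucleotide reductase subunits Rrm1 and Rrm2, and Dut, which destroys dUTP. Tyms was 68.5, 34.2, 41.0 and 28.3 CPM in Eos+ libraries, 52.0, 15.0, 12.3 and 9.94 in Eos- libraries and 54.0, 50.8, 37.4 and 37.4 in Tconv libraries. Eos- Treg 1 was far above the other 3 Eos- libraries, and without it no Eos- library reached the other groups. Its log2 change was 0.95 in Eos+ against Eos- Tregs (adjusted p = 0.194) and -1.01 in Eos- Tregs against Tconv (0.174). With the block both were called (1.16 and -1.32, adjusted p = 0.0112 and 0.00651), and so they were without Eos- Treg 1 (1.78 and -1.85, 0.0013 and 0.000974). Rrm2 was 112, 41.4, 54.6 and 32.3 CPM in Eos+ libraries, 122, 34.4, 7.09 and 15.5 in Eos- libraries and 121, 101, 58.3 and 52.7 in Tconv libraries. It had a log2 change of -0.90 in Eos- Tregs against Tconv (adjusted p = 0.451; with the block -1.42 and 0.0393; without Eos- Treg 1 -2.12 and 0.019). Rrm1, at 56.6 to 171 CPM, had log2 changes of 0.58 between the Treg groups (adjusted p = 0.122) and -0.49 in Eos- Tregs against Tconv (0.205), both called with the block (0.62 and -0.55, 0.011 and 0.0207) and without Eos- Treg 1 (0.85 and -0.76, 0.0109 and 0.0185). Dut, at 22.8 to 62.5 CPM, had 0.52 (0.19) and -0.37 (0.376), both called with the block (0.53 and -0.41, adjusted p = 0.0125 and 0.0433), and the first also without Eos- Treg 1 (0.77, 0.0325). Ung, which removes uracil from DNA, ranged from 3.08 to 9.87 CPM and was not called with or without the block, but fell in Eos- Tregs against Tconv without Eos- Treg 1 (-0.87, adjusted p = 0.045). It was not called there without the libraries numbered 1 (-0.74, adjusted p = 0.13).

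At the fork, Pcna is the sliding clamp, Fen1 cuts flaps, Pola1 primes synthesis and Tipin protects stalled forks. Pcna (chromosome 2) was 149, 89.4, 109 and 104 CPM in Eos+ libraries, 131, 104, 91.3 and 91.5 in Eos- libraries and 138, 167, 140 and 145 in Tconv libraries. It fell 1.41-fold in Eos- Tregs against Tconv, where the groups did not overlap (log2 -0.50, SE 0.15, adjusted p = 0.0465, edgeR). The call was lost without any of Eos- Treg 2, 3 and 4 or of the 4 Tconv libraries (adjusted p 0.0708 to 0.123). Against Tconv, Eos+ Tregs had log2 -0.39 (adjusted p = 0.0762), called with the block (-0.41, 0.0314) and without the libraries numbered 1 (-0.58, 0.00312), and the Treg groups differed by 0.11 (0.693). Pcna values were not whole in all 12 libraries, as happens where RSEM splits reads that match several sequences. Fen1, Pola1 and Tipin had log2 changes of -0.28 to -0.62 in Eos- Tregs against Tconv, none called, and of these Tipin was called with the block (-0.60, adjusted p = 0.0429). Without Eos- Treg 1 all 3 fell there (-0.50, -0.99 and -0.80, adjusted p = 0.0438, 0.0163 and 0.0251). When the libraries numbered 1 were left out, Pola1 and Tipin were called there (adjusted p = 0.0403 and 0.0326) but Fen1 was not (0.0904).

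Of the genes that rebuild chromatin behind the fork, Chaf1b was the S phase gene called lower in Eos+ than in Eos- Tregs. It encodes a subunit of CAF-1, which deposits new histones. Chaf1b (ENSMUSG00000022945.12, chromosome 16, 93883901 to 93906115) was 28.4, 14.4, 27.8 and 23.2 CPM in Eos+ libraries, 38.9, 40.3, 31.1 and 37.9 in Eos- libraries and 40.6, 45.0, 42.1 and 41.9 in Tconv libraries. The 3 groups did not overlap in any pair. It fell 1.58-fold against Eos- Tregs (log2 -0.66, SE 0.18, adjusted p = 0.0249, edgeR) and 1.81-fold against Tconv (log2 -0.86, SE 0.18, adjusted p = 0.00304, edgeR), lower in 4 of 4 numbers each time. The second call held in all 18 other fits, and the first was lost without Eos- Treg 2 (0.0633), without Eos- Treg 4 (0.0518) and in a fit of these 2 groups only (0.0576). Eos- Tregs against Tconv had log2 -0.19 (adjusted p = 0.543). Uhrf1, which maintains DNA methylation, was 75.8, 35.8, 60.7 and 39.7 CPM in Eos+ libraries, 79.8, 21.9, 8.85 and 11.5 in Eos- libraries and 88.1, 71.1, 47.1 and 38.7 in Tconv libraries. It had log2 0.80 between the Treg groups (adjusted p = 0.399) and -1.01 in Eos- Tregs against Tconv (0.288). Both were called with the block (1.22 and -1.38, adjusted p = 0.0479 and 0.0291), without Eos- Treg 1 (1.89 and -2.11, 0.00549 and 0.00292) and without the libraries numbered 1 (1.67 and -1.89, 0.0115 and 0.0061). Slbp, which binds histone mRNA, had 0.46 and -0.33 (adjusted p = 0.151 and 0.322), called with the block (0.49 and -0.38, 0.00532 and 0.021) and without Eos- Treg 1 (0.69 and -0.57, 0.0107 and 0.027).

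E2f1 switches on S phase genes, and cyclins E1 and E2 activate Cdk2. E2f1 was 16.9, 6.29, 12.0 and 11.7 CPM in Eos+ libraries, 14.1, 5.10, 2.04 and 5.11 in Eos- libraries and 15.9, 21.6, 17.0 and 15.6 in Tconv libraries. Every Eos- library lay below every Tconv library, at log2 -1.42 (SE 0.46) and adjusted p = 0.0572, with the block -1.67 (0.0177) and without Eos- Treg 1 -2.09 (0.00222). Between the Treg groups it had 0.84 (adjusted p = 0.252), called without Eos- Treg 1 (1.5, 0.0133). Ccne2 was 19.3, 6.77, 8.63 and 6.95 CPM in Eos+ libraries, 13.1, 2.31, 4.18 and 3.65 in Eos- libraries and 18.9, 15.0, 7.33 and 8.39 in Tconv libraries. It was called with the block in Eos+ against Eos- Tregs (0.97, adjusted p = 0.0457) and in Eos- Tregs against Tconv (-1.31, 0.0142), and likewise without Eos- Treg 1 (Ccne2 1.61 and -1.88, adjusted p = 0.0269 and 0.0134), but 609 of its exon bases lie in Ints8. Ccne1 differed from Ccne2, since it was 11.6 to 16.8 CPM in Eos+ libraries, 12.3 to 22.7 in Eos- libraries and 16.8 to 21.7 in Tconv libraries. Its log2 change between the Treg groups was -0.25 (adjusted p = 0.454), and it fell in Eos+ Tregs against Tconv with the block (-0.52, 0.0205), from -0.50 (0.0734) without it.

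Mki67 (Ki-67, the usual marker of cycling cells) and Top2a, which untangles sister DNA, showed the G2/M pattern. Mki67 was 50.4, 18.2, 38.6 and 43.3 CPM in Eos+ libraries, 43.9, 18.9, 2.59 and 5.92 in Eos- libraries and 62.5, 66.5, 49.8 and 31.0 in Tconv libraries. The highest Eos- library exceeded the lowest of both other groups, and the lowest was 2.59 CPM. In Eos- Tregs against Tconv it had log2 -1.56 (SE 0.65, adjusted p = 0.136; with the block -1.94 and 0.0406). It was called there without Eos- Treg 1 (-2.51, adjusted p = 0.0103) and without the libraries numbered 1 (-2.42, 0.0262). Between the Treg groups it had 1.08 (adjusted p = 0.299), called without Eos- Treg 1 (2.02, 0.0271). With all 3 number 1 libraries removed, this Mki67 difference missed the threshold (log2 1.85, adjusted p = 0.0721). Top2a was 75.8, 35.2, 61.5 and 63.9 CPM in Eos+ libraries, 82.2, 30.3, 3.94 and 15.7 in Eos- libraries and 118, 140, 77.4 and 86.9 in Tconv libraries. Every Eos+ library of Top2a lay below every Tconv library, but with log2 -0.84 (SE 0.61) and adjusted p = 0.346. In Eos- Tregs against Tconv it had log2 -1.68 (adjusted p = 0.0936; with the block -2.08 and 0.0234), called also without Eos- Treg 1 (-2.66, 0.00449) and without the libraries numbered 1 (-2.60, 0.013). Between the Treg groups Top2a had 0.84 (adjusted p = 0.404), called without Eos- Treg 1 (1.81, 0.0272). It too missed the threshold there once all 3 number 1 libraries were removed (1.67, adjusted p = 0.0742).

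**Figure D4:**
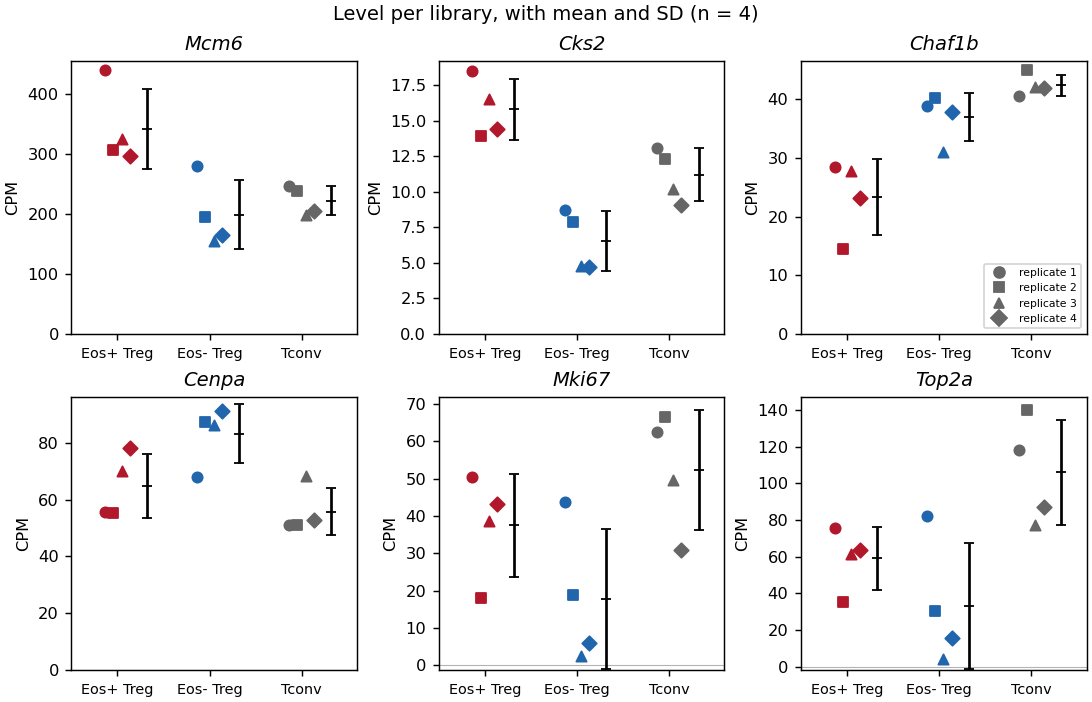
CPM of 6 genes in each library, with the mean and SD of 4 libraries beside each group; the SD of Mki67 and Top2a in Eos- Tregs is wider than the mean, so its bar passes below 0. Mcm6 and Cks2 are highest and Chaf1b lowest in all 4 Eos+ libraries, and Cenpa is highest on average in Eos- Tregs (83.3 CPM).

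Cdk1 with cyclins A2, B1 and B2 drives entry into mitosis, Plk1 and Aurka mature the spindle poles, and Cks2 is a small subunit that binds Cdk1. Cdk1 was 23.2, 4.82, 9.30 and 7.95 CPM in Eos+ libraries, 17.8, 5.24, 1.18 and 1.64 in Eos- libraries and 21.3, 17.9, 10.9 and 14.2 in Tconv libraries. Ccnb1 was 43.6, 10.3, 16.9 and 22.1 CPM in Eos+ libraries, 33.3, 8.23, 1.87 and 1.90 in Eos- libraries and 37.2, 26.9, 15.4 and 12.9 in Tconv libraries. In both genes the values of libraries numbered 1 were the highest of their group, and those of Eos- Treg 3 and 4 the lowest of all. Cdk1, Ccnb1, Ccnb2, Ccna2, Aurka and Plk1 had log2 changes of 0.36 to 1.04 between the Treg groups and of -0.90 to -1.32 between Eos- Tregs and Tconv. None was called, and with the block only Cdk1 (-1.92, adjusted p = 0.0231) and Aurka (-1.11, 0.0452) were, both in Eos- Tregs against Tconv. More were called without Eos- Treg 1. Cdk1 then had log2 2.05 between the Treg groups (adjusted p = 0.0314) and -2.57 in Eos- Tregs against Tconv (0.0115). The same values were 2.52 (0.018) and -2.52 (0.0177) for Ccnb1, and 2.42 (0.0207) and -2.79 (0.0108) for Ccna2. Ccna2 shares 510 exon bases with Exosc9, which reached 54.2 CPM. Aurka had -1.56 (0.0316) in Eos- Tregs against Tconv, and Ccnb2 and Plk1 were not called. Without the libraries numbered 1, Cdk1, Ccnb1, Ccna2 and Aurka fell in Eos- Tregs against Tconv (-2.41, -2.19, -2.65 and -1.40, adjusted p = 0.0119, 0.0292, 0.0195 and 0.0452), and Ccnb1 rose between the Treg groups (2.02, 0.0418). Cdk1 and Ccna2 were not called between the Treg groups in that fit (adjusted p = 0.0896 and 0.0601).

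Cks2 was called where Cdk1 and the cyclins were not. It (ENSMUSG00000062248.5, chromosome 13, 51645232 to 51650660) was 18.5, 13.9, 16.5 and 14.4 CPM in Eos+ libraries, 8.72, 7.89, 4.77 and 4.68 in Eos- libraries and 13.1, 12.3, 10.2 and 9.07 in Tconv libraries. The 3 groups did not overlap in any pair. It rose 2.43-fold in Eos+ over Eos- Tregs (log2 1.28, SE 0.23, adjusted p = 0.00223, edgeR), and the call held in all 18 other fits (adjusted p 2.28e-06 to 0.00822). It fell 1.72-fold in Eos- Tregs against Tconv (log2 -0.78, SE 0.23, adjusted p = 0.0372, edgeR), a call lost without Eos- Treg 3 or 4 or Tconv 1, 2 or 3 (adjusted p 0.0569 to 0.103), without a filter (0.0506) and in a fit of 2 groups (0.0692). Eos+ Tregs had 1.41 times the level of Tconv (log2 0.50, adjusted p = 0.118; with the block 0.0463). Values of Cks2 were not whole in 11 of 12 libraries, as in Pcna.

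Aurkb and Birc5 (survivin) belong to the chromosomal passenger complex, which corrects faulty attachments. Aurkb was 25.2, 4.45, 14.2 and 14.5 CPM in Eos+ libraries, 26.1, 6.50, 0.622 and 1.12 in Eos- libraries and 22.4, 15.8, 10.6 and 7.23 in Tconv libraries. Birc5 was 34.3, 10.2, 17.8 and 16.0 CPM in Eos+ libraries, 27.5, 10.6, 1.18 and 3.33 in Eos- libraries and 32.2, 29.6, 21.3 and 17.9 in Tconv libraries. Aurkb was not called in any comparison, and without Eos- Treg 1 it had log2 2.38 (adjusted p = 0.0506) between the Treg groups and -2.33 (0.0554) in Eos- Tregs against Tconv. Birc5 was called in Eos- Tregs against Tconv with the block (log2 -1.76, adjusted p = 0.0474) and in both comparisons without Eos- Treg 1 (1.93 and -2.31, 0.0441 and 0.0215). Its call against Tconv held without the libraries numbered 1 (-2.17, adjusted p = 0.0383). The call between the Treg groups did not (1.52, adjusted p = 0.125). Birc5 was also the member whose values followed the other G2/M genes most closely (r = 0.992 across 12 libraries, after the group means were taken off), a description of libraries that share depth and source.

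Bub1, Bub1b and Ttk are spindle checkpoint kinases, and Cdc20 and Ube2c act with the ligase that ends mitosis. Bub1 was 17.4, 7.12, 7.70 and 7.36 CPM in Eos+ libraries, 11.2, 4.16, 1.18 and 0.948 in Eos- libraries and 16.4, 17.1, 6.12 and 11.0 in Tconv libraries. Its log2 change was 1.19 between the Treg groups (adjusted p = 0.263) and -1.54 in Eos- Tregs against Tconv (0.151), and both were called with the block (1.63 and -2.0, adjusted p = 0.0261 and 0.011). Bub1b was called with the block in the same comparisons (1.15 and -1.15, adjusted p = 0.0389 and 0.0412). Without Eos- Treg 1, Bub1 had 2.22 and -2.58 (adjusted p = 0.018 and 0.00873) and Bub1b 1.68 and -1.65 (0.0159 and 0.0171). Removing all 3 number 1 libraries left Bub1 uncalled between the Treg groups (1.8, adjusted p = 0.0541) but called against Tconv (-2.44, 0.0157). Bub1b stayed called in both comparisons (1.3 and -1.55, adjusted p = 0.0447 and 0.0205). Cdc20, at 8.78 to 47.9 CPM, Ube2c, at 1.07 to 27.1, and Ttk, at 0.657 to 7.49, were not called with or without the block. When Eos- Treg 1 was left out, Ube2c was called in both comparisons (1.89 and -2.18, adjusted p = 0.0452 and 0.0256) and Ttk in Eos- Tregs against Tconv (-2.17, 0.0383). With the libraries numbered 1 left out, Ube2c was called against Tconv (-1.97, adjusted p = 0.047) but not between the Treg groups (1.48, 0.12). Ttk was not called against Tconv in that fit (-1.93, adjusted p = 0.0637). Ttk was the lowest member per kilobase of exon (0.722 CPM per kb), just below Cenpf (0.753).

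The centromere genes did not move as 1 group. Cenpa encodes the histone H3 variant that marks the centromere. Cenpa (ENSMUSG00000029177.9, chromosome 5, 30666777 to 30674830) was 55.5, 55.2, 70.0 and 78.3 CPM in Eos+ libraries, 67.9, 87.5, 86.3 and 91.4 in Eos- libraries and 51.2, 51.1, 68.2 and 52.7 in Tconv libraries. Eos- Treg 1, the lowest of its group, was just under Tconv 3, the highest of its group. Cenpa rose 1.49-fold in Eos- Tregs against Tconv (log2 0.58, SE 0.14, adjusted p = 0.0168, edgeR), higher in 4 of 4 replicate numbers. The call was lost without Eos- Treg 4 (0.057), Tconv 1 (0.0536) or Tconv 2 (0.057). Between the Treg groups it had log2 -0.36 in Eos+ (adjusted p = 0.109), called with the block (-0.37, 0.0305) and without Eos- Treg 1 (-0.46, 0.0433). Cenpa was not called there without the libraries numbered 1 (-0.39, adjusted p = 0.109). Its correlation with the mean of the other G2/M genes was -0.446 over 12 libraries with group means removed, against a median of 0.943 over the 26 G2/M genes and 0.855 over the 25 S phase genes.

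Ndc80, which anchors microtubules at the kinetochore, was nearly level. It was 17.3 to 23.6 CPM in Eos+ libraries, 22.8 to 27.7 in Eos- libraries and 18.7 to 26.8 in Tconv libraries, with log2 -0.31, -0.12 and 0.19 in the 3 comparisons, none called, and a correlation of 0.245. The motor Cenpe and the kinetochore protein Cenpf followed the others more closely, with correlations of 0.96 and 0.809. Cenpe was 28.5, 11.1, 10.8 and 12.6 CPM in Eos+ libraries, 19.1, 13.1, 1.80 and 4.08 in Eos- libraries and 24.6, 23.0, 16.8 and 12.9 in Tconv libraries, and was called with the block in Eos- Tregs against Tconv (-1.37, adjusted p = 0.0407; without Eos- Treg 1 -1.60 and 0.0767). Cenpf reached its lowest value, 0.138 CPM, in Eos- Treg 3, against 5.31 to 24.0 CPM in the other 11 libraries. Eos- Treg 4, at 5.31 CPM, was close to Eos- Treg 2, at 5.53. In Eos- Tregs against Tconv Cenpf was not called in edgeR (adjusted p = 0.205), with the block (0.0826) or without Eos- Treg 1 (0.0624). The windows of Cenpa and Ndc80 both hold CHR letters, 17 and 30 bases from the start, as do those of most G2/M members.

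The spindle genes include the motors Kif11, Kif20a and Kif2c and the microtubule binders Tpx2, Nusap1 and Hmmr. Kif11 was 38.8, 17.7, 25.1 and 22.4 CPM in Eos+ libraries, 54.1, 19.4, 2.35 and 4.57 in Eos- libraries and 64.1, 70.1, 37.7 and 39.1 in Tconv libraries. In Eos- Tregs against Tconv, Kif11 (log2 -1.97, adjusted p = 0.0347) and Tpx2 (-1.52, 0.0324) were called with the block. They were called there too without Eos- Treg 1 (-2.58 and -2.09, adjusted p = 0.0108 and 0.0145) and without the libraries numbered 1 (-2.47 and -1.95, 0.0248 and 0.0243). Leaving out Eos- Treg 1 also called Tpx2 (1.81, adjusted p = 0.0278) and Kif20a (0.98, 0.0461) between the Treg groups and Kif2c (-2.27, 0.0309) and Hmmr (-2.47, 0.0383) in Eos- Tregs against Tconv. None of these further calls held without the libraries numbered 1 (adjusted p = 0.0803, 0.0747, 0.07 and 0.0873). Nusap1 and Hmmr, at 0.919 to 37.2 and 0.345 to 22.0 CPM, were lowest in Eos- Treg 4, and Nusap1 was not called in any of these fits. Kif20a spanned the narrowest range of the 6 as a ratio, 10.4 to 36.2 CPM, but 1271 of its exon bases are shared with Cdc23, which reached 217 CPM, and reads of the pair cannot be told apart without strand.

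The sum of immature thymocyte markers moved in part with these levels. The summed CPM of 10 immature thymocyte markers (Rag1, Rag2, Cd8a and Ptcra among them) was 417, 103, 71.9 and 73.5 in Eos+ libraries, 443, 211, 59.8 and 60.7 in Eos- libraries and 362, 378, 118 and 143 in Tconv libraries. Rag1, a recombinase gene of immature thymocytes, was 35.6 and 15.6 CPM in Eos- Treg 1 and 2 and 0.0 and 0.0574 in Eos- Treg 3 and 4, and Rag2 was at 0 in Eos- Treg 3. Not every marker of the list did the same. Cd24a was 26.3, 21.2, 19.9 and 20.4 CPM in Eos- Treg 1 to 4, and Ptcra was 0.798 CPM in Eos- Treg 2 and 0.747 in Eos- Treg 4. The libraries with the highest sums were those with the highest G2/M means, and the 2 lowest sums were those of the 2 lowest G2/M means. The sums did not track the groups in every library, since Eos+ Treg 3 and 4, at 71.9 and 73.5, had G2/M means of 4.05 and 3.99. In the comparison of the Treg groups 0 of the 10 markers was called, and 1 was lower in each Treg group against Tconv. Their part in the differences above was not tested.

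**Figure D5:**
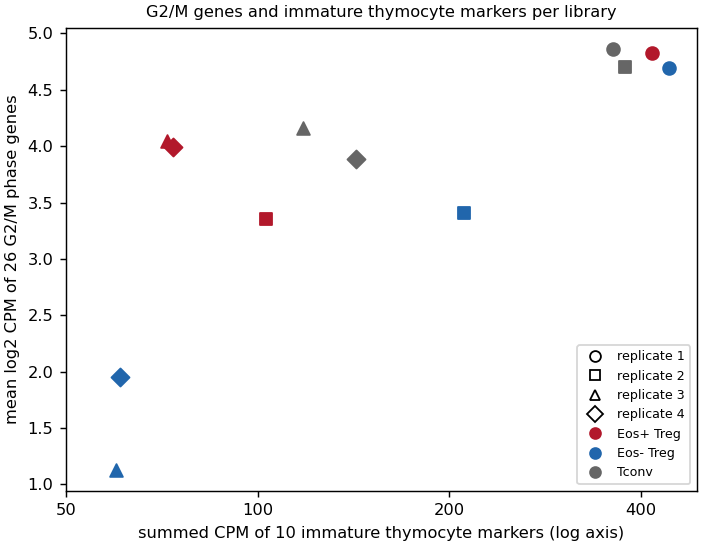
Mean log2 CPM of the 26 G2/M genes against the summed CPM of 10 immature thymocyte markers (log axis) in the 12 libraries. All 3 libraries numbered 1 and Tconv 2 lie at the upper right (sums of 362 to 443), Eos- Treg 3 and 4 at the lower left, and Eos+ Treg 3 and 4 above them at sums of 71.9 and 73.5.

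B cell markers summed to 1390 to 1810 CPM in Eos+ Tregs, mostly Ighm at 1330 to 1660, against 176 to 470 in Eos- Tregs and 226 to 398 in Tconv. Of 8 B cell markers tested, 3 were higher in Eos+ than Eos- Tregs. Myeloid and dendritic markers summed to 453 to 1130, 86.4 to 583 and 180 to 614 CPM, with Cd74 the largest, and 2 of 9 tested were higher in Eos+ than Eos- Tregs. In the same comparison 2 of 5 epithelial and stromal markers were higher and 1 lower, 1 of 8 innate-like, CD8 and NK markers was higher, and 3 of 7 T cell markers were lower. Against Tconv, 5 of 8 innate-like, CD8 and NK markers were lower in Eos+ Tregs and 3 of 8 in Eos- Tregs, with 0 higher. Of 7 T cell markers, 6 and 3 were lower, and 1 was higher in Eos- Tregs. B cell (2 of 8) and myeloid and dendritic (1 of 9) markers were higher only in Eos+ Tregs. Of 5 epithelial and stromal markers, 1 was higher in each Treg group and 1 lower in Eos+ Tregs. The part of these markers in the differences from Tconv was not tested, nor was their part in the values of Mcm6, Cks2 and Chaf1b. The calls of these genes between the Treg groups did not rest on the libraries numbered 1. Without those libraries the log2 changes in Eos+ against Eos- Tregs were 0.84 for Mcm6 (adjusted p = 0.000999), 1.36 for Cks2 (0.00564) and -0.75 for Chaf1b (0.0389).

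Other genes of the same pathways were taken from lists chosen by function. Of 36 other replication genes, 3 rose and 1 fell in Eos+ against Eos- Tregs, 2 rose and 5 fell in Eos+ Tregs against Tconv, and 5 fell in Eos- Tregs against Tconv. The shares of all genes called in these comparisons were 16.3%, 30.3% and 14.6%. The median log2 changes of the list were 0.39, -0.08 and -0.43. Tk1, the thymidine salvage kinase, was 31.3 ± 5.46 CPM in Eos+ libraries, 7.21 ± 5.25 in Eos- libraries and 17.6 ± 3.49 in Tconv libraries (SD, n = 4). It rose 4.37-fold between the Treg groups (log2 2.13, SE 0.38, adjusted p = 0.00219, edgeR) and fell 2.45-fold in Eos- Tregs against Tconv (adjusted p = 0.0349). Chaf1a, the large subunit of CAF-1, rose 2.12-fold in Eos+ over Eos- Tregs (24.8 ± 10.2 against 11.7 ± 6.04 CPM, adjusted p = 0.0454), opposite to Chaf1b, but it shares 4648 exon bases with Ubxn6. Pold3 rose 1.46-fold, and Timeless, the partner of Tipin, fell 1.44-fold. Cdc7, Dnmt1 and Pole2 fell in both Treg groups against Tconv, with log2 changes of -0.53 to -0.96. With the block the calls were 12 higher and 1 lower, 4 and 6, and 0 and 15, where 22.8%, 36.3% and 21.5% of all genes were called.

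Of 45 other mitosis genes, 4 rose and 1 fell in Eos+ against Eos- Tregs, 5 rose and 5 fell in Eos+ Tregs against Tconv, and 2 rose and 5 fell in Eos- Tregs against Tconv, with medians of 0.44, -0.43 and -0.90. The shares of all genes called were again 16.3%, 30.3% and 14.6%. Kif23, a motor of the central spindle, was 15.8 ± 8.04, 13.2 ± 14.3 and 57.9 ± 12.4 CPM in the order Eos+, Eos- and Tconv (SD, n = 4) and fell 3.67-fold and 4.41-fold in the Treg groups against Tconv (adjusted p = 0.0275 and 0.0282, edgeR). Stmn1, a microtubule destabiliser, and Cks1b, the paralog of Cks2, fell in both as well (Cks1b log2 -1.37 and -1.40). Cdc25b, a phosphatase that activates Cdk1, was 91.4 ± 16.7, 44.8 ± 5.24 and 33.1 ± 5.95 CPM and rose 2.04-fold and 2.77-fold in Eos+ Tregs. Pttg1, or securin, rose in both Treg groups, at 84.1 ± 5.10, 66.2 ± 3.87 and 41.2 ± 2.59 CPM. Smc4, of condensin, rose in both too (926 and 1260 against 506 CPM), whereas its partner Smc2 fell in Eos- Tregs (44.8 against 77.2 CPM). With the block, 10 and 3, 5 and 8, and 3 and 19 were higher and lower, where 22.8%, 36.3% and 21.5% of all genes were called.

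Among 25 D cyclins, CDK inhibitors, pocket proteins and related regulators, 2 rose and 6 fell in Eos+ against Eos- Tregs, 3 rose and 4 fell in Eos+ Tregs against Tconv, and 4 rose and 1 fell in Eos- Tregs against Tconv, beside 16.3%, 30.3% and 14.6% of all genes called. With the block, 4 and 7, 6 and 5, and 6 and 6 were higher and lower (22.8%, 36.3% and 21.5% of all genes called). The pocket protein gene Rbl2 was 351 ± 42.2 CPM in Eos+ libraries, 197 ± 16.8 in Eos- libraries and 164 ± 13.1 in Tconv libraries (SD, n = 4), rising 1.78-fold and 2.14-fold in Eos+ Tregs (adjusted p = 0.000129 and 3.67e-06, edgeR). Rb1 was highest in Eos- Tregs, at 182 ± 40.3 against 114 ± 25.1 and 101 ± 16.6 CPM, and Klf2, a quiescence factor, likewise at 564 ± 178 against 295 ± 127 and 269 ± 54.3. Both were called in Eos- Tregs against each other group. E2f2 rose 2.05-fold in Eos+ over Eos- Tregs, and Ccnd3 fell 1.46-fold. Rb1 shares exon bases with Lpar6 and Rcbtb2, Rbl2 with Aktip and Ccnd3 with Bysl, so these values are uncertain.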

How the data were processed

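Libraries of 12 sorted thymus samples were used. The authors deposited unscaled expected counts per gene. The submitters' processing notes list RSEM 1.3.1, STAR 2.7.0f, cutadapt 1.18 and the build mm10, and per the labels' protocols cDNA came from 1 ng of total RNA by template switching with Nextera XT, which marks no strand. Each of the 55450 gene IDs matched GENCODE M21, although the annotation used for counting is not given in the sources used here. Of the members' values, 23.0% were not whole (tolerance 1e-06), since RSEM splits reads that match several genes. Of the 51 members, 13 share exon positions with another gene, 8 of them with a gene that reached 5 CPM. Those 8 are Mcm7, Gins2, Cdc45, Fen1, Ccne2, Ccna2, Cdc20 and Kif20a, whose values are less certain without strand.

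Counts were rounded and tested over all 15361 genes that passed filterByExpr with edgeR 4.0.16 in R 4.3.3 (quasi-likelihood F test, TMM factors, 1 mean per group over 12 libraries, two-sided, Benjamini-Hochberg, threshold 0.05). The SE was taken as the size of the log2 change divided by the root of F. Mean log2 CPM used a prior count of 2. The sort genes and Ikzf4 were checked by exact two-sided permutation of log2(CPM + 1), whose smallest p is 0.029: Foxp3 and Ccr6 separated Tregs from Tconv (p = 0.029, adjusted 0.036 over the tests made), and Cxcr4 did not separate the Treg groups (p = 0.26). On simulated counts of 15361 genes for Eos+ against Eos- Tregs, the test recovered 24%, 42%, 68% and 82% of genes changed 1.5-, 2-, 4- and 8-fold. The changed genes were drawn at random from all tested genes, with no effect of the replicate number. These shares therefore do not give the recovery for the G2/M members, whose spread between libraries was wider.

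Libraries share replicate numbers and a code in their names across groups. Deviations from group means correlated at 0.138 to 0.318 in the 12 same-number pairs and at -0.226 to 0.0695 in the 36 others, so the numbers pair the libraries, and blocked values are given where they change a member's call or a count. Other alternatives were DESeq2 1.42.0, limma-voom 3.58.1 with library weights, other scalings and filters, fits of 2 groups and leaving out libraries. The text names every member called in any comparison, 20 members by role, the extremes per length and the called companion genes largest in change. Members, lists and rules were chosen with earlier results of these data known. Promoter windows came from RefSeq (GRCm38.p6).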

Additional observations from a re-analysis of the deposited data

Results flagged for a closer look

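In 6 of 153 groups of 4 values looked at (51 genes in 3 groups), a single library lay far from the other 3 by Dixon's criterion, which chance meets in about 1 of 20 groups. Bub1 was 17.4 CPM in Eos+ Treg 1, against 7.12 to 7.70 in the other Eos+ libraries. Cenpe was 28.5 CPM in Eos+ Treg 1, against 10.8 to 12.6. Hmmr was 14.1 CPM in Eos+ Treg 1, against 6.43 to 7.00. Ccne2 was 19.3 CPM in Eos+ Treg 1, against 6.77 to 8.63. Tyms was 52.0 CPM in Eos- Treg 1, against 9.94 to 15.0 in the other Eos- libraries. Cenpa was 68.2 CPM in Tconv 3, against 51.1 to 52.7 in the other Tconv libraries. The first 5 of these 6 values are in libraries numbered 1, which also held low Foxp3 and erythroid transcripts; the part of that in these values was not tested.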

How the results depend on the processing

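Counts are of S phase and then G2/M members called, out of 25 and 26. In Eos+ against Eos- Tregs (2 and 1 as reported) they were 10 and 4 with the replicate block, 8 and 5 with limma-voom, 10 and 3 without the libraries numbered 1, and 12 and 8 with both the block and that omission, a fit chosen after seeing the data. A fit of these 2 groups gave 1 in S phase. The shares of all genes called in these fits were, in that order, 16.3%, 22.8%, 20.2%, 14.7%, 19.8% and 14.2%. Leaving out 1 library gave 1 to 13 and 1 to 13, with 13 and 13 reached without Eos- Treg 1. Over all genes those fits called 1910 to 2936 of 15728 to 15886 tested. In Eos+ Tregs against Tconv (2 and 0) the counts were 5 and 1 with the block, 5 and 1 with limma-voom, 4 and 2 in a fit of 2 groups, 5 in S phase without number 1 and 6 with the block as well. The shares of all genes called were, in that order, 30.3%, 36.3%, 36.1%, 31.6%, 26.5% and 31.6%. Leaving out 1 library gave 1 to 2 in S phase, with 1 reached without Tconv 3 or 4. Over all genes those fits called 3882 to 4377 of 15728 to 15909 tested. In Eos- Tregs against Tconv (2 and 2) they were 15 and 12 with the block, 15 and 22 with limma-voom, 16 and 14 without number 1, and 16 and 16 with the block as well. The shares of all genes called were, in that order, 14.6%, 21.5%, 21.5%, 15.5% and 20.3%. DESeq2 gave 5 in S phase, and no filter or a fit of 2 groups gave 1 in G2/M. Over all genes these called 3003 of 15361, 1930 of 25968 and 2211 of 14333. Leaving out 1 library gave 0 to 18 and 0 to 17, the highest without Eos- Treg 1. Over all genes those fits called 1574 to 2884 of 15798 to 15909 tested. Counts over all genes stayed within 1.5 times in each alternative.

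Of 1260 alternative log2 changes of named members, 1025 kept their direction and side of the threshold, 204 gained a call, 28 lost one and 3 changed sign. Those 3 were uncalled differences between the Treg groups without Eos+ Treg replicate 1: Pcna -0.05 (adjusted p = 0.862), Rrm2 -0.06 (0.973) and Cdc20 -0.03 (0.982), whose highest values, all without Eos- Treg 1, were 0.23, 1.64 and 1.12. The cause of these shifts was not tested. With 4 libraries a group, genes with the spread of the G2/M members could change several-fold without a call.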

Other observations

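Outside the lists, the 10 tested genes whose values most resembled the mean of the G2/M members, after group means were taken off, were Cit (r = 0.988 over 12 libraries), Pclaf (0.987), Rad51ap1, Shcbp1, Nmral1, Knl1, Neil3, Chdh, Cep55 and Cenpm (0.951). Pclaf, a PCNA-binding protein of S phase, was 56.7, 14.8, 22.9 and 25.2 CPM in Eos+ libraries, 44.3, 14.5, 2.21 and 3.76 in Eos- libraries and 53.0, 47.9, 29.8 and 35.4 in Tconv libraries. Chdh, a choline dehydrogenase gene, resembled them within groups (r = 0.958) but not between them, at 57.5 to 71.5 CPM in Tconv against 3.93 to 13.2 in Eos+ libraries and 1.90 to 19.6 in Eos- libraries.

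The neighbours of Mcm6 on chromosome 1, chosen after its values were seen, did not share its call between the Treg groups. Lct, 3271 bases away, did not pass the filter. Dars, 4042 bases away, had a log2 change of 0.15 (adjusted p = 0.446, edgeR), Ubxn4 -0.08 (0.548) and R3hdm1 -0.19 (0.27).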
